A study of Mus musculus with 12 samples.

Results

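The comparison is of B16F10 cells without both p300 and CBP, by their label, against B16F10 cells labelled as lacking p300 only. It asks what the loss of Crebbp adds in cells that already carry an Ep300 knockout. Its members are the 6 libraries labelled dKO (genotype Ep300 and Crebbp knockout, 3 libraries) and p300KO (genotype Ep300 knockout, 3 libraries), out of 12 in the series, and all 54752 counted genes. B16F10 is an established mouse melanoma line, grown here in DMEM with 10% fetal bovine serum. The other 6 libraries are 3 of B16F10 without a knockout (genotype WT, called control below) and 3 with a Crebbp knockout alone (CbpKO). They serve to set the same contrast in cells without the Ep300 knockout label beside it. All 12 libraries are poly(A)-selected stranded RNA-seq of the same line, and both groups compared carry the Ep300 knockout by their labels. The labels leave out how the genes were disrupted, whether a knockout is 1 clone or a pool, and whether replicate libraries come from separate cultures. All p-values here rest on the scatter among these libraries, which could be technical alone.

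p300 (Ep300) and CBP (Crebbp) are paralogous lysine acetyltransferases. Transcription factors recruit them to enhancers and promoters, where they acetylate histone H3 and H4 tails and act as coactivators. Known partners include CREB, AP-1, STAT and IRF factors, NF-kappaB, p53, E2F, HIF-1, SREBP and, in melanocytes, MITF. Their shared domains are why the loss of 1 paralog is commonly studied beside the loss of both.

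Library depth ran from 75183189 to 85604243 counts in the 6 libraries, and 18434 genes passed the filter on low counts. The biological coefficient of variation over all 12 libraries was 9.46%. On the first principal component of the 12 libraries, which carried 51.1% of the variance, the dKO libraries lay between 64.4 and 67.7 and the p300KO libraries between 9.17 and 16.8. The melanocyte lineage was present in all 6 libraries, with Mitf at 347 CPM (library-scaled counts, with TMM factors) or more and Dct at 1349 CPM or more. Markers of other cell types were scarce. Of 8 immune markers, 6 had under 50 counts in every one of the 6 libraries, and Cd3e and Adgre1 were at 0 throughout. All 6 endothelial and all 6 epithelial markers had under 50 counts, as did 4 of 7 fibroblast markers.

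The levels of the targeted genes come before the rest. Crebbp lies on the minus strand of chromosome 16 (mm10, 4081328 to 4213997, ENSMUSG00000022521). Its level was 69.1, 80.1 and 92.8 CPM in the p300KO libraries and 66.2, 68.7 and 57.1 CPM in the dKO libraries. The groups did not overlap, but the gap was narrow. Its log2 fold change was -0.33 ± 0.11 (SE, n = 3 per group, adjusted p = 0.0331). The call was lost without p300KO replicate 2 or 3 and without dKO replicate 1 or 3 (adjusted p up to 0.141). It was also lost with the replicate numbers as a block (0.0642) and with scaling by library totals (0.389). In the CbpKO libraries the transcript stood at 34.5 ± 3.60 CPM (SD, n = 3) against 64.7 ± 7.00 in control, a log2 change of -0.91 ± 0.12 (adjusted p = 0.000527). The dKO level of Crebbp was close to the control level, and the transcript does not check the Crebbp part of the dKO label.

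Ep300 lies on the plus strand of chromosome 15 (81585351 to 81652077, ENSMUSG00000055024). Its level was 77.5, 82.9 and 94.7 CPM in p300KO and 146, 160 and 138 CPM in dKO. Every dKO library was above every p300KO library, by a log2 fold change of 0.80 ± 0.10 (adjusted p = 3.02e-05). Against control, with 94.4 ± 7.72 CPM, the p300KO level differed by a log2 change of -0.15 (adjusted p = 0.376). Gene-level counts include any edited transcript that is still made, so neither gene's level shows whether the protein is lost. Below, dKO, p300KO and CbpKO name the libraries as labelled.

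Of the 18434 genes tested, 6376 (34.6%) differed between dKO and p300KO at an adjusted p under 0.05 in the edgeR quasi-likelihood test. Of these, 3315 (18.0% of tested genes) were higher in dKO and 3061 (16.6%) lower. These shares over all tested genes are the background for the list counts below. Most changes were small: 902 genes reached 2-fold, 502 higher and 400 lower, and 153 reached 4-fold, 100 higher and 53 lower. The 3 libraries of 1 group lay beyond the 3 of the other in 8735 genes (47.4% of those tested), among them 6228 of the 6376 called. Without dKO replicate 2, 4298 genes were called, 1945 of them lower. The median log2 fold change of all tested genes was -0.01. With scaling by library totals alone it was 0.16, and the split of calls was then 5301 higher and 1639 lower, so changes are given relative to the bulk of the genes.

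**Figure D1:**
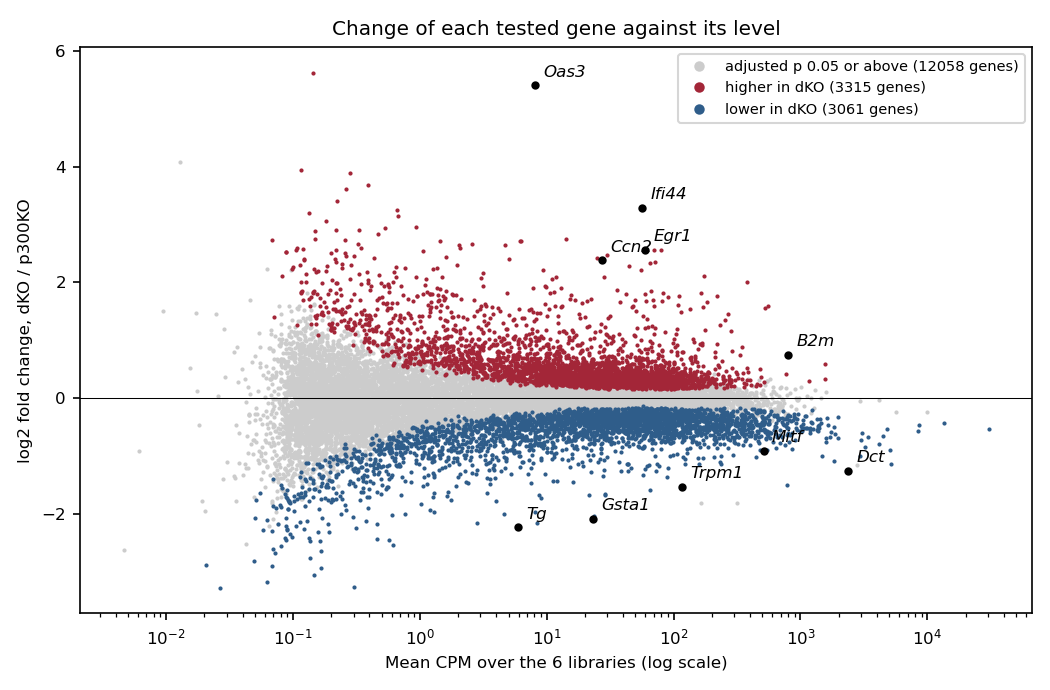
Log2 fold change of dKO against p300KO (vertical axis) for each of 18434 tested genes against its mean CPM over the 6 libraries (horizontal log axis). Red points are the 3315 genes called higher, blue points the 3061 called lower and grey points the rest. Oas3, at 5.41, and Ifi44, at 3.29, stand above genes of like level, and Tg, at -2.23, and Gsta1, at -2.09, below.

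The largest rise among named genes of at least 5 CPM was that of Oas3, an interferon-induced enzyme that makes 2'-5'-linked oligoadenylate on double-stranded RNA. Oas3 (ENSMUSG00000032661, chromosome 5, 120753098 to 120777661, minus strand) stood at 0.347, 0.266 and 0.488 CPM in p300KO and at 16.5, 16 and 14.8 CPM in dKO. The log2 fold change was 5.41 ± 0.19 (adjusted p = 5.36e-11). Oasl1, Oasl2, Ifi44, Zbp1, Irf5, Irf7 and Apol9b, all interferon-induced, were among the other 9, with log2 fold changes from 2.42 to 3.29. The remaining 2 were Egr1, an immediate-early transcription factor, at 2.56, and Il11, a cytokine of the IL-6 family, at 2.48. Zbp1 is a sensor of Z-form nucleic acid that triggers cell death.

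The largest falls were of a different kind. Tg, which encodes thyroglobulin (chromosome 15, 66670753 to 66850721, plus strand), fell from 9.18, 9.51 and 10.5 CPM to 2.21, 1.96 and 2.05 CPM, a log2 change of -2.23 ± 0.09 (adjusted p = 1.67e-10). Gsta1 and Gsta2, glutathione S-transferases of near-identical sequence whose reads cannot be cleanly divided, fell by 2.09 and 2.03 on the log2 scale. Oca2 and Trpm1, genes of the melanosome and of melanocyte ion conductance, fell by 1.73 and 1.53. Frmd3, Eya1, Sema6d, Tmem56 and Ncald made up the rest, with changes from -1.97 to -1.59.

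**Figure D2:**
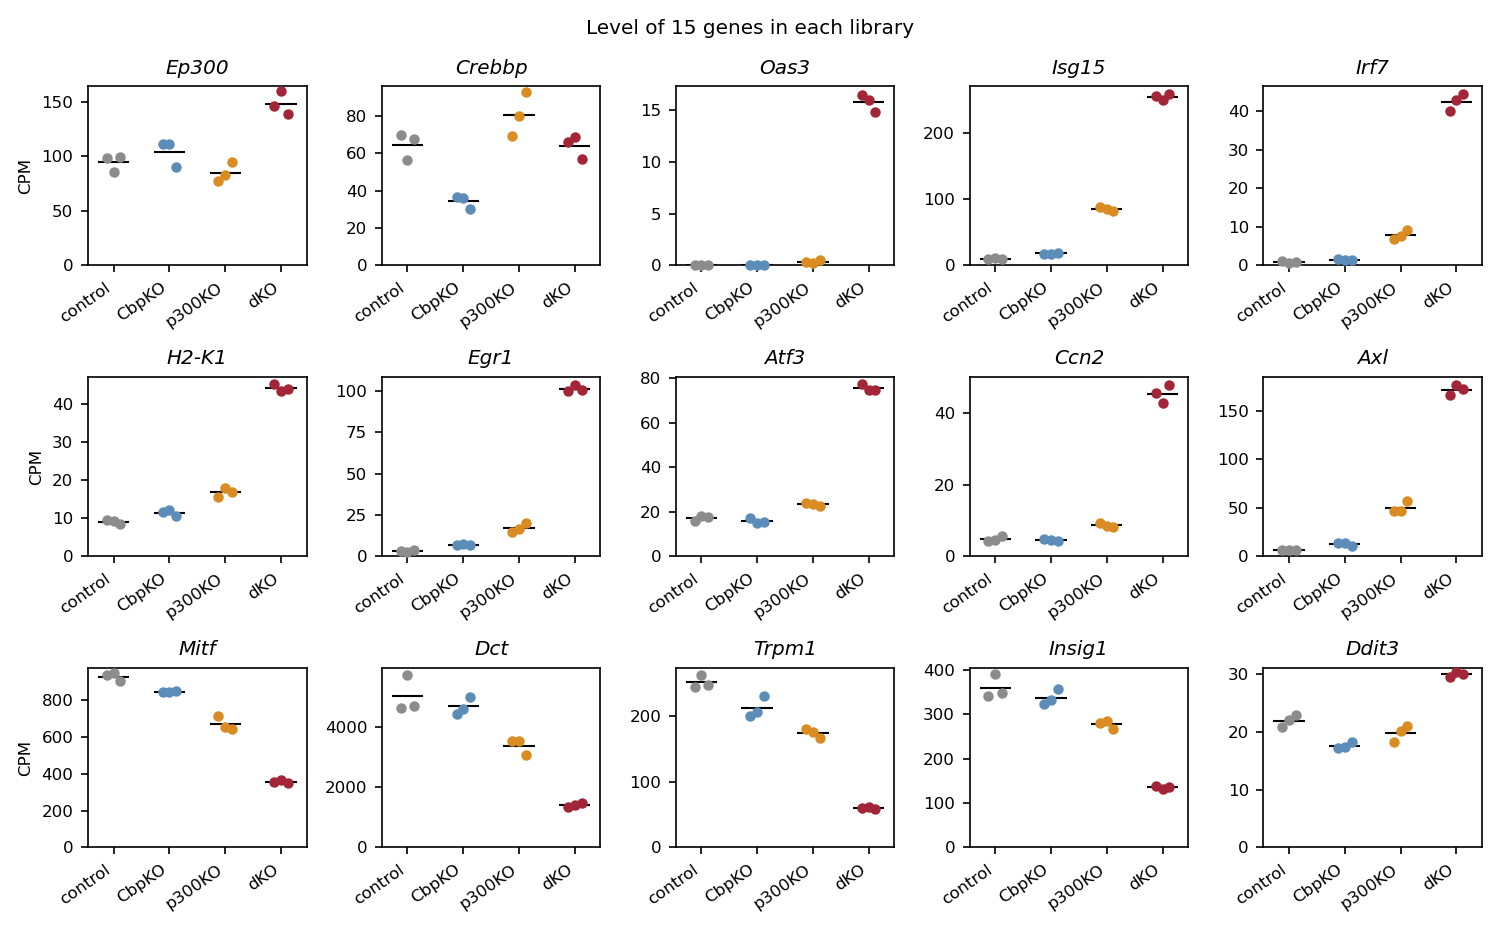
Level in CPM (vertical axes, each starting at 0) of 15 genes in the 12 libraries, by group. Points are libraries and horizontal lines are group means of 3. For Oas3, Irf7, Ccn2 and Egr1 the dKO points lie far above the other 3 groups, and for Mitf, Dct, Trpm1 and Insig1 below them.

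The interferon response was the group with the most uniform change. Interferon binding to its receptor activates JAK kinases and, through them, STAT and IRF factors, which bind the interferon-stimulated response element (ISRE) at the start of target genes, and the products include RNA sensors and antiviral effectors. Of 58 tested effector genes, 57 rose in dKO, none fell and 1, Ifi27, did not pass the test, against 18.0% higher over all genes. Their median log2 fold change was 1.57, against -0.01 for all tested genes, and their range ran from 0.07 to 5.41. The count was also 57 higher and none lower with offsets for exon length and GC content and with scaling by library totals.

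Isg15, a ubiquitin-like modifier, stood at 88.4, 85.1 and 82.5 CPM in p300KO and at 256, 249 and 258 CPM in dKO, with no overlap, a log2 fold change of 1.58 ± 0.06 (adjusted p = 1.52e-10). Ifit3, which binds viral RNA, rose from between 62.6 and 66.1 CPM to between 267 and 293 CPM (2.11 ± 0.07). Apol9a and Apol9b, close paralogs, rose by 2.35 and 2.56. Ddx60, an RNA helicase, rose by 2.34 and Sp140, a bromodomain protein of nuclear bodies, by 2.66. Ifit2 moved least among the members that passed, at 0.26 ± 0.07 (adjusted p = 0.00705), from 66.1 to 79.3 CPM on average. Several members (the Ifit, Oas, Apol9, Gbp and Irg families) have near-identical copies, and the division of reads within a family is uncertain.

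Genes that sense nucleic acid or carry the interferon signal moved less and less evenly. Of 31 tested, 23 rose, 1 fell and 7 did not pass, with a median of 0.44. Irf7, the factor that amplifies interferon production, stood at 6.82, 7.74 and 9.06 CPM in p300KO and 40.0, 42.8 and 44.2 CPM in dKO (2.42 ± 0.12, adjusted p = 1.57e-09). Stat2 rose by 1.69 and Irf9 by 0.65. The cytosolic RNA sensors Dhx58, Ifih1 and Ddx58 rose by 1.87, 1.53 and 1.27, and the endosomal sensor Tlr3 by 1.36. Of the receptor chains, Ifngr2 fell by 0.42 and Ifngr1 rose by 0.26, while Ifnar1 (-0.03) and Ifnar2 (0.06) did not pass the test. Ifnb1, which encodes interferon beta, averaged 0.188 CPM in p300KO and 0.543 CPM in dKO, a log2 fold change of 1.52 ± 0.31 (adjusted p = 0.00181) at a very low level.

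To show the regulatory sequence near which these genes start, the 250 bases upstream of the RefSeq transcription start are given for 6 of the interferon-responsive genes (GRCm38.p6, gene strand, 5′ to 3′, ending at the base before the start). Isg15, Ifit3, Oas3, Apol9b and B2m are shown because they hold the letters GAAANNGAAA, a short form of the ISRE, on 1 strand or the other. Irf7 is shown as a strong riser without them. Capitals mark matches, and overlapping matches run together.
Isg15 (chr4:156200819-156201068, minus strand): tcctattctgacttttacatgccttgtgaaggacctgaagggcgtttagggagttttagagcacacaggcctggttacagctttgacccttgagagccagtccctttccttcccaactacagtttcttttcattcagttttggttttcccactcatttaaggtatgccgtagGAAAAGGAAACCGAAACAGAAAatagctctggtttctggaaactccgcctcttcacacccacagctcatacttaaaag
Ifit3 (chr19:34583279-34583528, plus strand): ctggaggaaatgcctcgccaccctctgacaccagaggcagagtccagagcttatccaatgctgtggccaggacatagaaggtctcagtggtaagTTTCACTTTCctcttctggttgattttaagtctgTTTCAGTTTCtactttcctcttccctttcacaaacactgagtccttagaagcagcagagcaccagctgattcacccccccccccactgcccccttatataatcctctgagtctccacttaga
Oas3 (chr5:120777660-120777909, minus strand): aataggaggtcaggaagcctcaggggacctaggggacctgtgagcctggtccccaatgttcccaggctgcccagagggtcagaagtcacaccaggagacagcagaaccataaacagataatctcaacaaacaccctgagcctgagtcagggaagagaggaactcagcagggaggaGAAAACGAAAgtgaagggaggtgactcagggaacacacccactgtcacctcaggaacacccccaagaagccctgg
Apol9b (chr15:77728822-77729071, plus strand): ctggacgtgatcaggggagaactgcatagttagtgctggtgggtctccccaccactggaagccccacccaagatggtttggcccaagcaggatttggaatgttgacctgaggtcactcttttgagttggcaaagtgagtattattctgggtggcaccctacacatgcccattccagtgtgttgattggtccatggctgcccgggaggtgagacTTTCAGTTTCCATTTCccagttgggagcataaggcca
B2m (chr2:122147437-122147686, plus strand): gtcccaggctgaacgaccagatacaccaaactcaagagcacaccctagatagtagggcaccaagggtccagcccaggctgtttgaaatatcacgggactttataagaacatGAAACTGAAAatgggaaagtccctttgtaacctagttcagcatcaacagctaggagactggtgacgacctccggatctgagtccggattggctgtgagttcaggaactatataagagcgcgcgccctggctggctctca
Irf7 (chr7:141266425-141266674, minus strand): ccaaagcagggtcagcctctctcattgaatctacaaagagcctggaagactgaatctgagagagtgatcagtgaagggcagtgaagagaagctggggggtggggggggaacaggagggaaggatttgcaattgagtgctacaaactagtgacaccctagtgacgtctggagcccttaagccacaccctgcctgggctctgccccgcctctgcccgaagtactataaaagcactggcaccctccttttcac

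Isg15 held 3 overlapping matches, from 78 to 57 bases before the start, Ifit3 2, at 156 to 147 and 122 to 113 bases before it, and Apol9b 2 that overlap, from 37 to 22 bases before it. Oas3 and B2m held 1 each. Over RefSeq windows of 250 bases before to 50 after a start, with 1 window per gene, the letters were found in 3.49% of all 27025 windows and in 333 of the 11052 tested genes that had one (3.01%). Among genes called higher by at least 2-fold they were in 60 of 351 (17.1%), and among those called lower by at least 2-fold in 3 of 194 (1.55%). In the effector list 24 of 43 windows held them (55.8%), and in the MHC class I list 5 of 19 (26.3%). None of the other motifs searched lies within GAAANNGAAA. Apol9b has more than 1 start in the table, and the first window is shown. A match describes the letters only and is not evidence of binding.

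Antigen presentation by MHC class I, whose genes show peptides to CD8 T cells, rose broadly. Of 22 tested genes, 18 were higher in dKO, 3 lower and 1 (H2-Q7) did not pass, with a median of 1.03. The classical heavy chain H2-K1 stood at 15.7, 17.9 and 16.9 CPM in p300KO and at 45.3, 43.5 and 43.8 CPM in dKO (1.39 ± 0.08, adjusted p = 6.29e-09), with no overlap. H2-D1 rose by 1.01 and H2-T22 by 1.01. The light chain B2m rose from 612, 552 and 616 CPM to 980, 1021 and 992 CPM, a log2 fold change of 0.75 ± 0.07. Nlrc5, the transactivator of these genes, rose by 1.63, the transporter Tap1 by 1.18, the loading factor Tapbp by 1.21 and the immunoproteasome subunit Psmb8 by 1.89. The 3 members that fell, Calr, Pdia3 and Canx, are general chaperones of the endoplasmic reticulum, at -0.57, -0.52 and -0.21. H2 genes share sequence with one another, so their individual values are less certain than their common direction.

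Among 30 cytokines, chemokines and checkpoint ligands, 16 rose, 3 fell and 11 did not pass (median 0.50). Il11 stood at 9.59, 10.0 and 7.88 CPM in p300KO and at 52.0, 48.6 and 52.4 CPM in dKO (2.48 ± 0.10, adjusted p = 1.87e-10). Cxcl10, a T-cell chemoattractant, rose from between 33.7 and 36.6 CPM to between 101 and 109 CPM (1.59 ± 0.06). Ccl5, another chemokine, rose by 1.91, and its p300KO level of between 2.89 and 3.52 CPM was below the control mean of 5.88 CPM. Lif, a cytokine of the IL-6 family, rose by 2.65 and Il6 itself by 1.84. Lif is not among the 10 largest rises, which needed a mean of at least 5 CPM and no overlap between groups. Cd274, which encodes PD-L1, rose from between 4.42 and 4.94 CPM to between 9.93 and 11.0 CPM (1.19 ± 0.09, adjusted p = 1.18e-07). The galectins Lgals1 and Lgals3 fell by 0.42 and 0.55. Of 19 NF-kappaB feedback and target genes 7 rose, none fell and 12 did not pass (median 0.15). Bcl3, an atypical inhibitor, rose by 1.79 at under 2 CPM, and Rela by 0.58. Without p300KO replicate 1, 3 of these genes were called higher, and without p300KO replicate 2, dKO replicate 1 or dKO replicate 2, 4 were. With length and GC offsets 5 were higher and 3 lower.

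Immediate-early genes, which AP-1, serum response factor and ERK signalling switch on within minutes, also rose. Of 35 tested, 23 rose, 2 fell and 10 did not pass, with a median of 0.89. Egr1 stood at 14.7, 16.5 and 20.3 CPM in p300KO and at 100, 104 and 101 CPM in dKO (2.56 ± 0.11, adjusted p = 2.89e-10). The AP-1 subunits Fos, Fosb, Fosl2, Jun, Junb and Jund rose by between 0.92 and 2.24. Atf3, a stress-induced member of the same class, rose from between 22.7 and 24.2 CPM to between 74.8 and 77.5 CPM (1.69 ± 0.07). The ERK-responsive genes Etv5, Etv4, Dusp5, Dusp6, Spry2 and Spry4 rose by between 0.61 and 2.16, while Dusp4, another ERK phosphatase, fell by 0.61. Myc, an immediate-early gene and the growth regulator, stood at 34.1, 37.1 and 40.6 CPM against 32.8, 33.5 and 33.0 CPM, a log2 fold change of -0.17 ± 0.08 that did not pass the test (adjusted p = 0.113). The AP-1 site TGANTCA was in 5.10% of tested windows and in 43 of 351 genes called higher by at least 2-fold (12.3%), and also in 19 of 194 called lower by at least 2-fold (9.79%). It was also in 15 of 43 interferon effector windows (34.9%), but in 0 of 25 windows of the immediate-early list itself.

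Genes tied to an invasive, dedifferentiated melanoma state moved in both directions. Axl, a receptor tyrosine kinase whose rise marks that state, stood at 47.0, 46.4 and 57.6 CPM in p300KO and at 166, 176 and 172 CPM in dKO (1.77 ± 0.10, adjusted p = 6.59e-09). Ngfr, the neural crest nerve growth factor receptor, rose by 1.57 and Jun by 1.10, while Pdgfrb fell by 0.86. Of the 17 tested genes of this list 8 rose, 3 fell and 6 did not pass (median 0.29). Of 24 YAP-TEAD targets, which report Hippo pathway output, 13 rose, none fell and 11 did not pass (median 0.28). With length and GC offsets 11 of these targets were higher and 2 lower. Ccn2, a matricellular protein, stood at 9.27, 8.55 and 8.36 CPM in p300KO and at 45.7, 43.0 and 48.0 CPM in dKO, with a log2 fold change of 2.38 ± 0.09 (adjusted p = 1.67e-10). Ccn1 rose by 1.45 and the pathway kinase Lats2 by 0.69, whereas the effector Yap1 (0.07) did not pass.

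Matrix, integrin and protease genes split, with 17 higher, 9 lower and 15 not passing of 41 (median 0.31). Over all tested genes 18.0% were higher and 16.6% lower. With length and GC offsets 14 genes of this list were higher and 12 lower. The protease inhibitor Timp1 rose from between 24.7 and 27.9 CPM to between 70.8 and 79.5 CPM (1.5 ± 0.07), and Timp2 fell from between 171 and 182 CPM to between 106 and 108 CPM (-0.73 ± 0.06). Thbs1 rose by 1.02 and Itgb3 fell by 0.83. In the TGF-beta and BMP pathway 9 of 24 genes rose and 3 fell (median 0.22). Ltbp1, which stores latent TGF-beta in the matrix, rose from between 8.38 and 9.42 CPM to between 44.4 and 47.4 CPM (2.37 ± 0.08, adjusted p = 5.36e-11). The ligand gene Tgfb1 rose by 1.15 and the corepressor Tgif1 by 0.82, while Bambi, a decoy receptor, fell by 1.07. With library totals 16 genes of this pathway were higher and 2 lower.

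The pigment programme fell. MITF is the transcription factor that drives the enzymes and structural proteins of the melanosome, the organelle in which melanin is made. Mitf (chromosome 6, 97807052 to 98021349, plus strand) stood at 711, 654 and 639 CPM in p300KO and at 354, 365 and 347 CPM in dKO, with no overlap, a log2 fold change of -0.91 ± 0.07 (adjusted p = 2.5e-07). Of 32 tested genes of melanin synthesis and the melanosome, 20 fell, 4 rose and 8 did not pass, against 16.6% lower over all genes, and the median was -0.67. The 4 that rose were Slc7a11, Ap3d1, Bloc1s3 and Vps33a, of which the last 3 act in vesicle sorting and Slc7a11 imports cystine. Without p300KO replicate 2, dKO replicate 1 or dKO replicate 2, 1 member was higher, and without p300KO replicate 1 or dKO replicate 3, 2 were.

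Dct, an enzyme of eumelanin synthesis, stood at 3517, 3516 and 3071 CPM in p300KO and at 1349, 1403 and 1470 CPM in dKO (-1.26 ± 0.11, adjusted p = 5.83e-07). Trpm1, a cation channel gene and MITF target, fell from 180, 175 and 167 CPM to 60.7, 60.9 and 58.9 CPM (-1.53 ± 0.07, adjusted p = 8.69e-10). Tyr, the rate-limiting enzyme of melanin synthesis, fell from 261, 246 and 184 CPM to 114, 108 and 114 CPM (-1.04 ± 0.12). In each of these genes every dKO library was below every p300KO library. Mlana fell by 1.51, Tyrp1 by 1.14, Slc24a5 by 1.13, Pmel by 1.01 and Slc45a2 by 1.00. Other genes of the list, such as Hps1 (0.05), Hps4 (-0.04) and Ap3b1 (0.13), did not pass the test.

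The same upstream windows are given for 3 pigment genes that hold the M-box letters TCATGTG, bound by MITF, on either strand. Capitals mark the matches.
Tyr (chr7:87493513-87493762, minus strand): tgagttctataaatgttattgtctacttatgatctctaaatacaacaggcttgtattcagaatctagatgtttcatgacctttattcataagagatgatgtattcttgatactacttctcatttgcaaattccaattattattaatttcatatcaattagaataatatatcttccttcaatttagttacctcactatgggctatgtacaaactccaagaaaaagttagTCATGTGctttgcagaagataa
Trpm1 (chr7:64153585-64153834, plus strand): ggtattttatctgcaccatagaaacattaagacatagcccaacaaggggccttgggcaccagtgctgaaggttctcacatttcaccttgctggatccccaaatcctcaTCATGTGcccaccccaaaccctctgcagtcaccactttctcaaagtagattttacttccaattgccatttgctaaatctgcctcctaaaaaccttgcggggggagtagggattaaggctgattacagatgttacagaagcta
Dct (chr14:118052247-118052496, minus strand): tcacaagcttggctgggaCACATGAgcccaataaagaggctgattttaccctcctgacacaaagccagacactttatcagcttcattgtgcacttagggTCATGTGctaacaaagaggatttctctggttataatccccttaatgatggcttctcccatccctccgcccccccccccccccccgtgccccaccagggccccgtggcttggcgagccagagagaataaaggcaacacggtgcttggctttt

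Tyr and Trpm1 held 1 match each, at 22 to 16 and 142 to 136 bases before the start, and Dct 2. Trpm1, like Apol9b, has more than 1 start in the table, and the first window is shown. TCATGTG was in 3.74% of all windows and in 249 of the 11052 tested genes with a window (2.25%). It was in 7 of 27 windows of the melanin and melanosome list (25.9%), in 15 of 194 genes called lower by at least 2-fold (7.73%) and in 7 of 351 called higher by at least 2-fold (1.99%). The CLEAR box TCACGTG, which differs from it by a single letter and so never matches the same bases on the same strand, was in 5.95% of tested windows and 25.9% of that list.

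Melanocyte transcription factors and receptors were mixed, with 10 lower, 5 higher and 6 not passing of 21 (median -0.14). With library totals 6 were lower and 5 higher (median 0.02), and without p300KO replicate 2, 10 were lower and 3 higher. Mc1r, the melanocortin receptor, fell from between 52.5 and 57.1 CPM to between 21.7 and 23.6 CPM (-1.26 ± 0.06, adjusted p = 1.89e-09). Cdk2, a cyclin-dependent kinase gene and MITF target, fell by 0.79, and the receptor gene Met by 0.81. Sox10, the lineage factor upstream of Mitf, stood at 119, 133 and 154 CPM in p300KO and 110, 113 and 96.3 CPM in dKO (-0.35 ± 0.10, adjusted p = 0.015), and its call was lost without p300KO replicate 3 (adjusted p = 0.0592), without dKO replicate 3 (0.0765) and with library totals (0.295). Kit and Sox9 went the other way. Kit averaged 12.9 CPM in control, 1.36 in p300KO and 2.16 in dKO, a rise of 0.66 ± 0.12 that left it far below control, and Sox9 averaged 27.5, 6.07 and 8.99 CPM (0.56 ± 0.15). Of 18 neural crest, glial and neuronal genes 8 fell and 4 rose, with S100b at -0.73, Tubb3 at -0.84 and Ncam1 at 0.85.

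Sterol and fatty acid synthesis genes fell together. These enzymes are induced together by SREBP factors when cell sterol is low. Of 35 tested genes 28 fell, none rose and 7 did not pass, with a median of -0.48. Insig1, the sterol sensor and an SREBP target, stood at 280, 284 and 266 CPM in p300KO and at 139, 133 and 136 CPM in dKO (-1.03 ± 0.07, adjusted p = 1.07e-07). Hmgcs1, which makes HMG-CoA, fell by 0.70, Ebp by 0.70 and Idi1 by 0.86. Srebf2 fell by 0.25 and Srebf1 (0.01) did not pass. With library totals 20 members were lower and 1 higher, and with length and GC offsets 32 were lower and none higher.

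The integrated stress response, in which ATF4 and CHOP (Ddit3) induce amino acid synthesis and import, rose, with 19 of 35 genes higher, 2 lower and 14 not passing (median 0.33). Atf5 stood at 25.1, 25.2 and 28 CPM in p300KO and 46.0, 48.3 and 44.4 CPM in dKO (0.82 ± 0.07, adjusted p = 3.51e-07). Ddit3 rose from between 18.2 and 21 CPM to between 29.4 and 30.3 CPM (0.60 ± 0.07). Ppp1r15a, the phosphatase subunit that ends the response, rose by 1.01, Chac1 by 0.87 and the pseudokinase Trib3 by 0.66, while Atf4 (0.13) did not pass. In the comparison of p300KO with control, which shares the p300KO libraries, 1 gene of this list was higher and 16 were lower. Over all genes that comparison called 16.1%, of which 7.27% of tested genes were higher and 8.83% lower. Slc7a11 averaged 73.3 CPM in control, 26.2 in p300KO and 40.8 in dKO.

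For the other stress and metabolic lists, the shares over all tested genes are 18.0% higher and 16.6% lower. Of 29 p53 targets 10 rose and 2 fell (median 0.17). Plk2 (1.22), Gadd45a (1.06), Sesn2 (0.71) and Btg2 (0.66) led, Cdkn1a rose by 0.33, and Mdm2 (0.17) and Bbc3 (-0.04) did not pass. With length and GC offsets 7 p53 targets were higher and 4 lower. Among 28 NRF2 and glutathione genes 11 fell and 5 rose (median -0.13), the share higher being near that over all genes. Log2 changes were -1.10 for Prdx1, -0.99 for Gstp1, -0.56 for Ftl1 and 0.92 for Hmox1, the haem oxygenase. Among 36 hypoxia and glycolysis genes 11 fell, 5 rose and 20 did not pass (median -0.10). Ndrg1 fell by 1.05, Aldoc by 1.02, Eno1 by 0.37 and Pgam1 by 0.34. Without p300KO replicate 2 or dKO replicate 2, 4 of these genes were lower, and without dKO replicate 3, 7 were. Lysosome and vacuolar ATPase genes had 12 lower and 3 higher of 37 (median -0.11), led by Ctsd at -0.48 and Hexa at -0.50, with Galns at 0.56. With library totals 7 hypoxia and glycolysis genes were higher and 4 lower, and 7 lysosome genes were higher and 5 lower.

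Cell cycle genes fell by small amounts. Of 40 E2F targets and replication genes 21 fell, 1 rose and 18 did not pass, with a median of -0.20. Tk1, thymidine kinase, fell from 194, 205 and 170 CPM to 113, 105 and 118 CPM (-0.76 ± 0.11, adjusted p = 8.99e-05), Brca1 by 0.54, Gins1 by 0.66 and Orc1 by 0.51. The helicase subunits Mcm2 (-0.19), Mcm4 (-0.04) and Mcm6 (0.08) did not pass. Of 37 mitotic genes 18 fell, 1 rose and 18 did not pass (median -0.20), with Cdc25b at -0.67, Cenpa at -0.71 and Aurkb at -0.38, while Pttg1 rose by 0.50 and Mki67 (-0.08) did not pass. These medians are of the size of the scaling shift, and with library totals 9 E2F genes and 10 mitotic genes were lower. Without dKO replicate 2, 13 E2F genes were lower. MYC targets and ribosome biogenesis genes mostly did not pass (27 of 38, with 8 lower and 3 higher, median -0.03). Over all tested genes 16.6% were lower and 18.0% higher. Tfrc fell by 0.71, Cdk4 by 0.43, and Gnl3 and Npm1 by 0.51 each. With library totals 8 of them were higher and 5 lower, and without p300KO replicate 2 or dKO replicate 2, 4 were lower.

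CREB is the factor for which CBP was named, yet the list of CREB and cAMP target genes showed no common direction. Of 27 genes 10 rose, 7 fell and 10 did not pass (median 0.01), against 18.0% higher and 16.6% lower over all tested genes. Changes in the list ran from -1.26 to 1.45, and its lowest value is also the lowest of the melanocyte factor and receptor list. Bdnf, a neurotrophin gene, rose from between 9.22 and 9.80 CPM to between 25.7 and 26.7 CPM (1.45 ± 0.08, adjusted p = 3.72e-09), the orphan receptor gene Nr4a1 rose by 1.25, and the phosphodiesterase Pde4b fell by 0.69. Crem fell by 0.35, and Creb1 (-0.09) and Atf1 (-0.10) did not pass. The CRE letters TGACGTCA were in 3.16% of tested windows, 2.56% of genes called higher by at least 2-fold and 1.55% of those called lower by at least 2-fold. Of 18 clock genes 8 rose and 2 fell (median 0.24), with Nfil3 at 0.82, Rora at 0.52, Clock at 0.28 and Bhlhe41 at -0.76. Without dKO replicate 2, 5 clock genes were higher, and without dKO replicate 3, 4 CREB targets were lower.

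Genes of the acetylation machinery more often rose than fell, by small amounts. Of 22 acetyltransferase genes, the targeted pair included, 10 rose, 4 fell and 8 did not pass (median 0.19). Over all tested genes 18.0% were higher and 16.6% lower. Kat6a (0.43), Kat6b (0.41) and Kat7 (0.34) rose, Hat1 (-0.37) and Esco2 (-0.35) fell, and Kat2b (0.13) and Kat5 (0.05) did not pass. With library totals 14 were higher and none lower, with length and GC offsets 7 and 3, and without dKO replicate 2, 6 were higher and 2 lower. Of 36 deacetylases, bromodomain readers and coregulators 16 rose and 1 fell (median 0.19). Brd2, a BET reader, stood at 227, 236 and 271 CPM in p300KO and at 452, 460 and 445 CPM in dKO (0.88 ± 0.08, adjusted p = 9.64e-07). Cited2, which binds the same domain of p300 and CBP as HIF-1, rose by 0.69, Smarca2 by 0.60 and Sirt1 by 0.53, while Cited1, of the same family and a pigment-cell gene, fell by 0.49. Many of these genes are long, and with offsets for length and GC content 11 coregulators were higher and 5 lower.

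**Figure D3:**
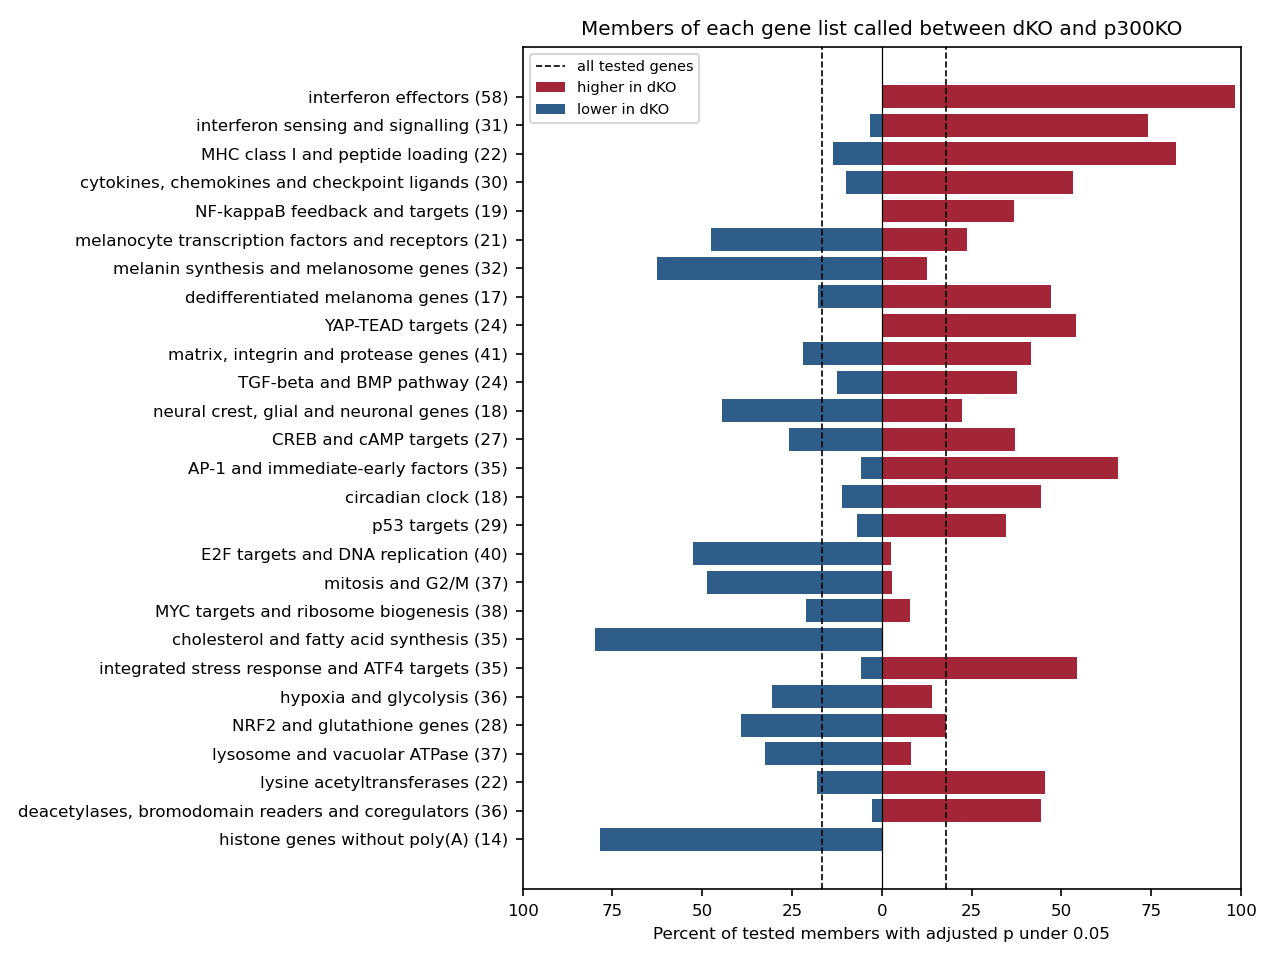
Percent of tested members of each gene list (number tested in parentheses) called higher (red, to the right) or lower (blue, to the left) in dKO than in p300KO. Dashed lines give the shares over all tested genes, 18.0% higher and 16.6% lower. Interferon effectors extend farthest to the right, with 57 of 58 members, and sterol and fatty acid synthesis genes farthest to the left, with 28 of 35.

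The same contrast in cells without the Ep300 knockout label, CbpKO against control, shares no library with dKO against p300KO. There 577 genes were called by the same test (3.13% of tested genes), 281 higher (1.52%) and 296 lower (1.61%). This count was sensitive to single libraries: 299 and 214 genes were called without CbpKO replicate 1 or 2, and 365 and 246 without control replicate 1 or 3. It was 1265 with DESeq2, and 3263 genes had an unadjusted p under 0.05. Of the 577 genes, 385 were also called between dKO and p300KO, which is 66.7% of the CbpKO calls and 6.04% of the dKO calls. Over all tested genes the dKO comparison called 34.6% and the CbpKO comparison 3.13%. The direction was the same in 346 of the 385, with 151 higher and 195 lower in both, and opposite in 39. Pearson's r across all tested genes was 0.27 and Spearman's rho 0.33, as a description, since genes are not independent replicates.

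The difference between the 2 effects was tested directly as an interaction, and 1897 genes (10.3%) passed. The effect was more positive in the libraries labelled with the Ep300 knockout in 983 (5.33%) and more negative in 914 (4.96%). The count was 1143 without p300KO replicate 2, 1119 without dKO replicate 2, 1197 and 1128 without control replicate 1 or 3, and 2861 without control replicate 2. This test uses the libraries of both comparisons, so its direction is partly built from the dKO change itself. Among 58 interferon effectors, 23 were higher in CbpKO than in control and 48 had a positive interaction, against 1.52% and 5.33% over all genes. Oas3 stood at between 0.0151 and 0.0448 CPM in CbpKO against at most 0.0508 CPM in control, a handful of counts, so its interaction of 5.18 ± 1.02 (adjusted p = 0.00495) rests on the dKO level. Ifit3 is better measured: 17.7 to 19.0 CPM in CbpKO and 17.3 to 19.6 CPM in control overlapped, and its interaction was 2.09 ± 0.09 (adjusted p = 2.13e-08). Isg15 rose in both settings, by 0.84 in CbpKO and 1.58 in dKO, with an interaction of 0.74 ± 0.09.

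In CbpKO, 3 of 35 immediate-early genes were higher and 2 lower (median -0.03), and 21 had a positive interaction and 2 a negative one. Over all tested genes 1.52% were higher and 1.61% lower in CbpKO, and 5.33% had a positive and 4.96% a negative interaction. Atf3 stood at 17.3, 15.2 and 15.3 CPM in CbpKO against 15.9, 18.3 and 17.6 CPM in control, and its interaction was 1.81 ± 0.10 (adjusted p = 8.27e-08). Dusp2, a nuclear ERK phosphatase, fell by 0.35 in CbpKO and rose by 1.46 in dKO. Ccn2 stood at 4.86, 4.63 and 4.22 CPM in CbpKO and 4.33, 4.65 and 5.63 CPM in control, which overlap, with an interaction of 2.48 ± 0.14 (adjusted p = 8.27e-08). Egr1 was called in both, at 1.16 in CbpKO and 2.56 in dKO, and Il11 rose by 1.95 and 2.48 with an interaction of 0.53 that did not pass (adjusted p = 0.0919).

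Of 35 sterol genes none was called higher and 1 lower in CbpKO (median -0.03), and 22 of them had a negative interaction. Insig1 averaged 360 CPM in control and 337 CPM in CbpKO, and its interaction was -0.93 ± 0.10 (adjusted p = 4.92e-05). Of 32 pigment genes 5 were lower in CbpKO and 17 had a negative interaction. Over all tested genes 1.61% were lower in CbpKO, 4.96% had a negative interaction and 5.33% a positive one. Trpm1 had an interaction of -1.29 ± 0.10 and Dct of -1.16 ± 0.15, while Oca2 fell in both, by 0.85 and 1.73. The stress-response genes Ddit3, Trib3 and Slc7a11 fell in CbpKO, by 0.32, 0.34 and 0.46, and rose in dKO, and 15 of the 35 genes of that list had a positive interaction. Ttll11, a tubulin polyglutamylase gene, went the other way, up by 0.91 in CbpKO and down by 0.81 in dKO.

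Beside p300KO against control, which shares the p300KO libraries, many of these groups stood as follows. Interferon effectors were higher in p300KO than in control in 57 of 58 genes (median 2.09), against 7.27% higher over all genes, and higher again in dKO over p300KO (median 1.57). Isg15 averaged 10.1 CPM in control, 85.4 in p300KO and 255 in dKO, and Apol9b 0.902, 20.3 and 120 CPM. Sterol genes were lower in 24 of 35 (median -0.36, then -0.48), and pigment genes in 21 of 32 (median -0.41, then -0.67), against 8.83% lower over all genes. Col1a1, a collagen gene, rose and then fell, at 2.59, 13.8 and 8.15 CPM. Mbp, a myelin gene, fell and then rose, at 6.44, 2.65 and 4.25 CPM.

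**Figure D4:**
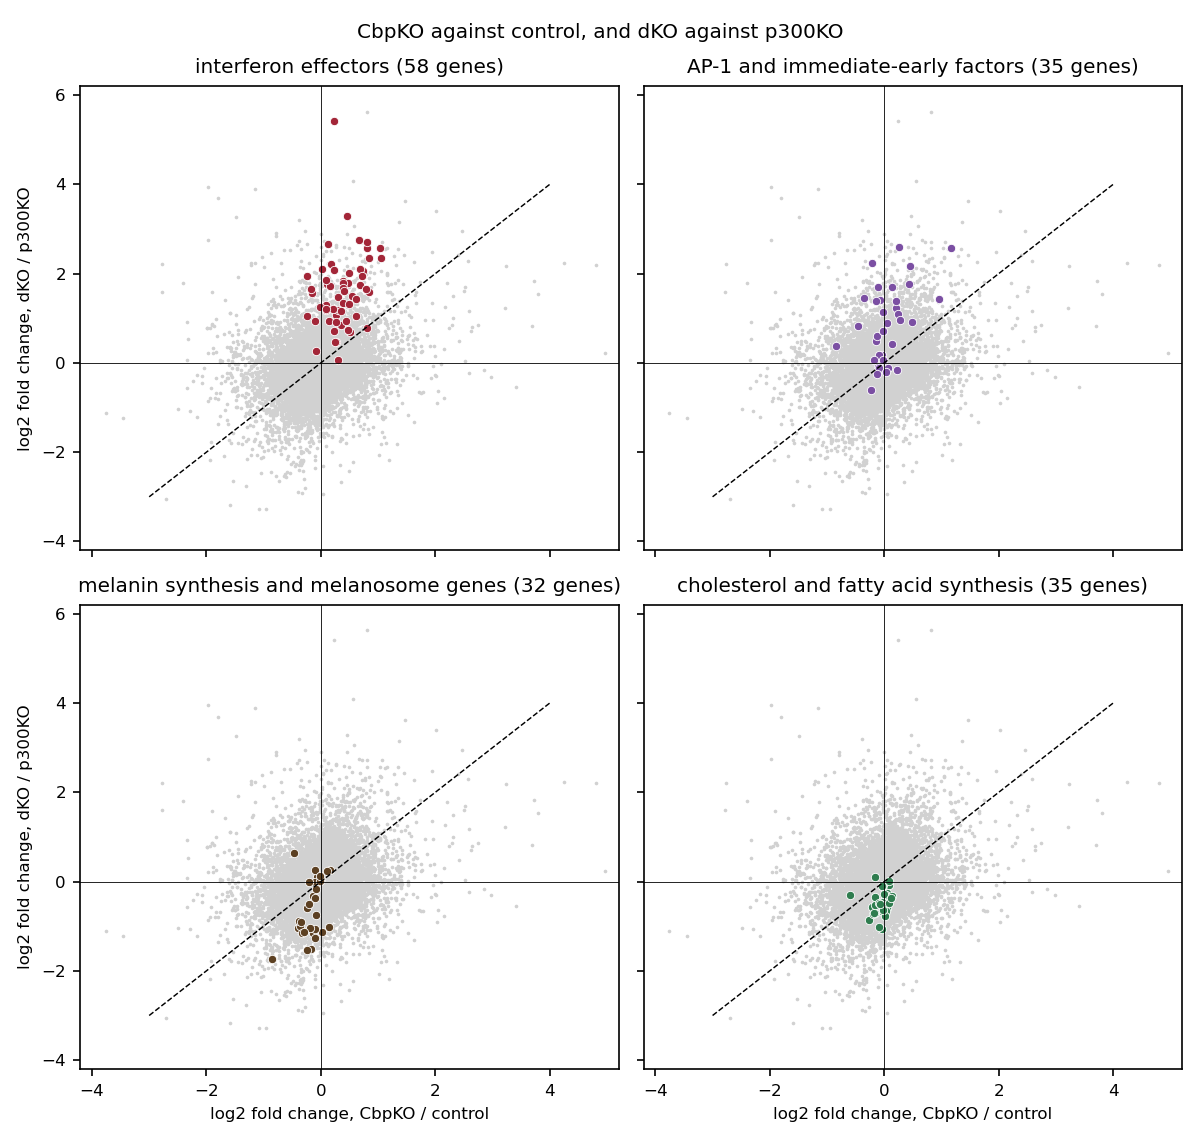
Log2 fold change of dKO against p300KO (vertical axes) and of CbpKO against control (horizontal axes) for all 18434 tested genes (grey) and the members of 4 lists (coloured). The dashed line marks equal change. Most interferon effectors and immediate-early genes lie above it, and most melanosome and sterol synthesis genes below it, at horizontal values near 0.

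RNA composition also moved with the dKO label. Transcripts of the mitochondrial genome made up 3.02% to 3.62% of counts in dKO and 4.39% to 5.15% in p300KO, and the 50 most abundant genes 15.4% to 16.5% and 18.7% to 21.4%. Of 14 histone genes without poly(A) tails, 11 fell and none rose (median -0.43), with Hist1h4a at 391, 431 and 389 CPM against 270, 232 and 258 CPM. Of 138 tested snoRNA genes 37 were lower and none higher, and of 1822 processed pseudogenes 363 were lower and 37 higher. Over all tested genes 16.6% were lower and 18.0% higher. The share of processed pseudogenes lower was near that, and their share higher was far below it. Protein-coding genes had 3165 higher and 2247 lower of 12882. Genes called higher had a median exon length of 5256 bases, those called lower 2658 and all tested genes 3336, and Spearman's rho of fold change with exon length was 0.29 across genes. With offsets for length and GC content, 6010 genes were called, 2830 higher and 3180 lower, and 5072 of the 6376 calls (79.5%) were kept. The part of length, RNA quality or composition in each change was not tested further. In bulk RNA, fewer cells in a state and less RNA per cell cannot be told apart.

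Of the other cell types' markers that passed the filter, the 3 fibroblast genes split, with Pdgfra up by 1.32 and Col1a1 and Col1a2 down by 0.76 and 0.88, and their list summed to 14.5 to 19.4 CPM in p300KO and 12.7 to 13.8 CPM in dKO. Dcn, Lum, Thy1 and Dpt had at most 1 count in any of the 6 libraries. Of the immune list, Cd68 rose by 0.83 and Lyz2 fell by 1.07, and the list summed to 4.12 to 5.17 CPM and 6.06 to 7.21 CPM. Ptprc, the pan-leukocyte marker, had at most 1 count in any of the 6 libraries. No endothelial or epithelial marker passed the test.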

How the data were processed

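RNA from 12 B16F10 samples in 4 groups of 3 libraries was sequenced after KAPA stranded mRNA library preparation, per the labels' protocols. The authors deposited 1 table of gene-level read counts, unnormalised, for 54752 Ensembl genes. The submitters' processing notes name bcl2fastq, HISAT2, HTSeq and the mouse build mm10. Versions, the strand setting of the counting and the annotation were not given in the sources used here. Without a stated strand setting, reads of overlapping and antisense genes cannot be told apart with certainty. GENCODE M21 gave symbols and positions for 54723 genes.

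From the counts, the edgeR quasi-likelihood test (edgeR 4.0.16, R 4.3.3, robust fit, TMM factors, filterByExpr) was fitted once to all 12 libraries with 1 mean per group. Contrasts were dKO minus p300KO, CbpKO minus control, p300KO minus control, and the difference between the first pair (interaction). P-values were adjusted by Benjamini-Hochberg over the 18434 genes tested, with a threshold of 0.05. Adjusted p-values in the text come from this fit, unless an alternative setting or a left-out library is named. Those come from the same edgeR test refitted in that setting. The standard error is the absolute log2 fold change divided by the root of F. Per-library levels are TMM-scaled CPM. The fit was first run on simulated counts in which few genes were changed. That setting differs from the real comparison, where many genes moved, so the run does not check the scaling of these data. Depth was similar across libraries, and genes with low counts are measured less precisely.

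Named genes are Ep300 and Crebbp, the 10 largest rises and falls at a mean of at least 5 CPM without overlap between groups, up to 4 called members of each of 31 gene lists with the smallest adjusted p, 15 anchor genes, and the 5 largest interactions in each direction. Predicted, clone-named and mitochondrial genes were left out of the largest changes. Values of some of these genes are not reported here. All other genes named were chosen after their values were seen. The comparison and lists were chosen with earlier results of these data known. RefSeq promoter windows (GRCm38.p6) were searched for motifs on both strands.

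Alternatives were DESeq2 1.42.0, limma-voom (limma 3.58.1), RLE factors, no filter, a filter of 1 CPM, a replicate block, a fit of only the groups compared, smooth offsets for exon length and GC content (mgcv 1.9.3), leaving out each library, and library totals without TMM. The last was chosen after seeing the data.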

Additional observations from a re-analysis of the deposited data

Results flagged for a closer look

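The effect of the Crebbp knockout label differed between libraries labelled with and without the Ep300 knockout in 1897 genes, by the interaction test. Among named genes, the effect was more positive in the libraries labelled with the Ep300 knockout for Oas3 (a log2 difference of 5.18), Ifi44 (2.83), Ccn2 (2.48), Ifit3 (2.09) and Oasl1 (2.08). It was more negative for Tg (-1.74), Ttll11 (-1.71), Frmd3 (-1.61), Gsta1 (-1.51) and Tmem56 (-1.50). For Oas3 the CbpKO and control libraries held at most 0.0508 CPM. Gsta1 shares near-identical sequence with Gsta2.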

How the results depend on the processing

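For dKO against p300KO, no gene called in both fits changed sign under any of the 21 alternatives, and 126 of the 135 called named genes kept their call in all of them. The other 9, among them Crebbp, Relb, Eno1, Atp6v0c, Esco2, Col1a2, Lyz2 and Sox10, lost it in at least 1, with their direction kept. In the same comparison, library totals gave 5301 genes higher and 1639 lower, and a filter of 1 CPM left 498 genes at 2-fold or more. Leaving out 1 library gave 4298 (without dKO replicate 2) to 7095 calls (without p300KO replicate 3), 2325 to 3730 higher, 1945 to 3365 lower and 770 to 970 at 2-fold or more. For CbpKO against control, calls numbered 1265 with DESeq2 (682 higher, 583 lower), 1123 with length and GC offsets (677, 446), 1270 without a filter (638, 632) and 257 with only the groups compared (125, 132). Leaving out 1 library gave 214 (without CbpKO replicate 2) to 774 calls (without p300KO replicate 3), 94 to 386 higher and 120 to 388 lower. Interaction calls with a more negative effect numbered 1432 with DESeq2, 508 with library totals and 1484 without a filter. Leaving out 1 library gave 1119 to 2861 interaction calls, 602 to 1363 more positive and 475 to 1498 more negative. The cause of these differences was not tested.

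The replicate block gave 5488 calls for dKO against p300KO, 5457 of them shared, and 321 for CbpKO against control (151 higher, 170 lower). Among named genes it ended only the Crebbp call (adjusted p = 0.0642). Same-numbered dKO and p300KO libraries correlated at 0.032, 3.41e-05 and -0.054 in their deviations from the group means. No library correlated best with its own number, and the numbers are not treated as pairs. Genes under about 1 CPM, such as Ifnb1 and Psmb8, rest on few counts.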

Other observations

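Ribosomal protein genes moved together. Of 79 tested genes found by symbols of cytosolic ribosomal proteins 71 were lower in dKO than in p300KO and none was higher (median log2 fold change -0.48). The 8 that did not pass include Rps6kl1, which is not a ribosomal protein gene, and the symbol search left out genes named Rplp. With length and GC offsets 64 of the 79 were lower (median -0.39), and with library totals 53 were (median -0.30). In CbpKO against control 1 was higher and none lower (median -0.12). Their median exon length was 1830 bases, below the 3336 of all tested genes, and the part of length in the change was not tested beyond the offsets. Of 71 nuclear-encoded subunits of the respiratory chain 37 were lower and none higher (median -0.33), with 32 lower under the offsets and 24 lower and 3 higher with library totals. Of 37 proteasome subunits 14 were lower and 3 higher (median -0.24). The 3 higher were Psmb8 (1.89), reported above with MHC class I, Psmb9 (0.73) and Psmb10 (0.68). With library totals 4 subunits were lower and 7 higher. These families were chosen after their values were seen.

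Aminoacyl-tRNA synthetase genes, some of them ATF4 targets, went the other way, with 8 of 17 higher and 1 lower (median 0.19), 6 and 1 with offsets (median 0.06) and 13 and none with library totals (median 0.36). Of 325 tested protein-coding zinc finger genes named Zfp, 77 were higher and 26 lower (median 0.08). Over all tested genes 18.0% were higher and 16.6% lower. Of the 12882 tested protein-coding genes 3165 were higher and 2247 lower (median 0.05), so the share of Zfp genes higher was close to that of protein-coding genes. With offsets 63 Zfp genes were higher and 29 lower, and with library totals 146 and 7 (median 0.25). Among RNA classes, 29 of 99 snRNA genes were lower and 1 higher, against the same 16.6% lower and 18.0% higher.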
